A study of Mus musculus with 12 samples.

Results

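The IFIT genes encode interferon-induced proteins with tetratricopeptide repeats, a family of cytosolic antiviral proteins that bind RNA. The 4 family members followed here are Ifit1, Ifit2, Ifit3 and I830012O16Rik, the older name of Ifit3b, and were taken by symbol from a table of 24062 gene entries. All 4 were among the 11440 genes that passed a filter on low values, which kept genes above 10 normalised counts in 3 or more libraries. The libraries were made from mRNA of wild-type C57Bl/6 mouse cells, labelled as primary macrophages grown from bone marrow (passage 1), with 3 libraries in each of 4 groups. One group received C-178, a covalent inhibitor of STING, together with CMA, a small molecule that activates mouse STING. The others received CMA alone, C-178 alone, or no stimulation, and both drugs were given for 2 h. Nothing in the labels says whether the libraries of a group came from separate animals or cultures, so the p values measure the spread between these libraries, which may be technical.

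STING is the adaptor that relays detection of cytosolic DNA to the kinase TBK1 and the transcription factor IRF3. IRF3 can switch on IFIT genes directly, and interferon-β made at the same time acts back on the cells through its receptor to drive the same genes. IFIT1 binds viral RNA whose cap lacks 2′-O methylation and blocks its translation. IFIT2 and IFIT3 bind each other, and in human cells IFIT3 also binds and stabilises IFIT1. Mice without Ifit2 are more sensitive to several neurotropic viruses.

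The 4 genes lie within one cluster on the plus strand of mouse chromosome 19 (GRCm38/mm10, GENCODE M21). In the order of the chromosome these are Ifit2 (ENSMUSG00000045932.12) at chr19:34550694-34576419, Ifit3 (ENSMUSG00000074896.3) at chr19:34583531-34588731, I830012O16Rik (ENSMUSG00000062488.9) at chr19:34607970-34613401 and Ifit1 (ENSMUSG00000034459.8) at chr19:34640871-34650009. Gm14446 and 2010002M12Rik, annotated on the minus strand, stand between them. The longest transcripts of Ifit3 and I830012O16Rik were 98% identical over 1697 aligned bases, with gaps not counted. Of the 50-base windows of Ifit3, 51.2% were also present in I830012O16Rik. The split of reads between these 2 genes is therefore uncertain, since the handling of shared reads by the authors is not known here. Ifit1, Ifit2 and Ifit3 had no 50-base window in common.

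The promoters are shown because all members responded to CMA while their windows differed in one motif. Each window runs from 250 bases before to 50 bases after the start of the gene (RefSeq, GRCm38.p6, plus strand, 5′ to 3′). Capitals mark the core of the interferon-stimulated response element, a site read by IRF factors, searched as GAAANNGAAA on both strands, and here found on the minus strand, so that the printed strand shows its reverse complement. The windows are chr19:34640639-34640938 for Ifit1, chr19:34583279-34583578 for Ifit3 and chr19:34550444-34550743 for Ifit2.
Ifit1: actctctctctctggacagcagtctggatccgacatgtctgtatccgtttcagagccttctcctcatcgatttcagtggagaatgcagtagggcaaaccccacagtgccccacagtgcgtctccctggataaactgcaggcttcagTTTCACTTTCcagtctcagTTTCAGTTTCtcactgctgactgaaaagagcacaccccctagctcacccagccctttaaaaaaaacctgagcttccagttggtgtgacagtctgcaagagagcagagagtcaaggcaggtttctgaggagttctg
Ifit3: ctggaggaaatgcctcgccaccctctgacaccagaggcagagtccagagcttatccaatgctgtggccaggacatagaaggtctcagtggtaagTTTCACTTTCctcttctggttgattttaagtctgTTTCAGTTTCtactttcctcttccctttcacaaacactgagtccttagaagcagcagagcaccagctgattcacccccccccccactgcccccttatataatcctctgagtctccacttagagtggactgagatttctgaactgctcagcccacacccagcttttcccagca
Ifit2: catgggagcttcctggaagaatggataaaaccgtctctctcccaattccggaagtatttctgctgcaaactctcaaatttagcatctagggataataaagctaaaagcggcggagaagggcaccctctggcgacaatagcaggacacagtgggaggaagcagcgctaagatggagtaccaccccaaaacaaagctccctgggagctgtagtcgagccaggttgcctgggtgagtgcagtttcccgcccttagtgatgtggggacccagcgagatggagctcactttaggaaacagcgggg
The Ifit1 window held 2 matches, which began 104 and 85 bases upstream of the start. The Ifit3 window also held 2 matches, 156 and 122 bases upstream. The window of I830012O16Rik (chr19:34607707-34608006) was 99.6% identical to that of Ifit3 over 260 aligned bases, with gaps not counted. It held the same pair of matches, 188 and 154 bases upstream of its own start. Neither of the 2 Ifit2 windows, the second at chr19:34550838-34551137, held a match. Both lie near the first base of a gene annotated from 34550694 to 34576419. Only these windows and this exact core were searched, so whether Ifit2 holds the element elsewhere or in another form was not tested. Among all 32851 promoter windows of this length, 3.44% held at least 1 match and 0.225% held 2 or more. The Ifit1 window overlapped that of 2010002M12Rik, which points the other way, by 245 bases, and both matches lie in the shared stretch. The NF-κB motif GGGANTTTCC, searched on both strands, was in none of the member windows and in 0.411% of all windows.

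Depth and cell identity bear on all values that follow. The depth was 7.766 to 36.438 M reads with C-178 plus CMA, 7.126 to 7.826 M with CMA, 7.049 to 28.476 M with C-178 and 13.907 to 17.449 M without stimulation. The labels describe macrophages, while their extraction protocol speaks of MEF, the usual abbreviation of mouse embryonic fibroblasts. Of 11 macrophage markers, 10 were in the table, and all 10 averaged above 100 normalised counts in every group. Of 7 neutrophil markers, 6 were in the table, and 3 of them averaged above 100 in every group. Fibroblast markers were far lower than macrophage markers. Their median was 47.88 normalised counts with C-178 plus CMA, 75.33 with CMA, 64.76 with C-178 and 57.48 without stimulation. Of 10 fibroblast markers, 4 averaged above 100 with C-178 plus CMA, 5 with CMA, 5 with C-178 and 4 without stimulation. Fn1 was the highest, at 631.2, 1164, 903.2 and 689.3 in the same order. Lum was at 0 in all groups except C-178. The summed level of the 10 fibroblast markers was 764 to 2088 with C-178 plus CMA, 1661 to 2998 with CMA, 1677 to 1954 with C-178 and 1325 to 1492 without stimulation. The part of fibroblasts or neutrophils in the results was not tested. The C-178 plus CMA libraries differed more among themselves than those of any other group, with a chi-square per gene of 68.3 to 113 between pairs, against 2.46 to 9.89 within CMA, 7.67 to 26.3 within C-178 and 6.6 to 14.9 without stimulation. Values are given below with and without the library that sets them. In bulk RNA, fewer cells expressing a gene and less RNA per cell cannot be told apart.

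CMA raised all 4 IFIT genes and placed them among the genes with the highest counts, without a correction for gene length. Together they held 2.63%, 2.88% and 2.77% of the reads in the 3 CMA libraries, against 0.0767%, 0.0529% and 0.0653% in the unstimulated libraries. By normalised count, Ifit2 ranked 4, 3 and 3 among all genes with CMA and 485, 816 and 561 without stimulation. Ifit1 ranked 6, 4 and 5 with CMA, against 999, 1547 and 1269 without stimulation. Ifit3 ranked lower with CMA, at 19, 21 and 21, against 918, 1407 and 1248 without stimulation. I830012O16Rik ranked 87, 86 and 86 with CMA, against 4136, 4945 and 4346 without stimulation. The CMA libraries lay wholly above the unstimulated ones for all 4 members, where 31% of all tested genes lay wholly higher and 30.9% wholly lower. All 4 members passed the test for a rise (limma, adjusted p under 0.05), against 19.4% of all tested genes called higher and 17.9% called lower in this comparison. Their median log2 change was 5.63, where the median of all tested genes was -0.01.

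Ifit1, the cap-sensing member, had the largest change of the 4. It stood at 125407, 143454 and 134636 normalised counts in the CMA libraries, against 2018, 1381 and 1622 in the unstimulated ones. The CMA libraries lay within a narrow band, and the lowest of them was far above the highest unstimulated library. The ratio of means was 80.38-fold, and the fitted log2 change was 6.34 ± 0.27 (SE; adjusted p = 7.59e-10, limma).

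Ifit2, which can associate with IFIT3 and, in human cells, has been linked to cell death, reached the highest counts of the family. It stood at 145640, 184983 and 170080 normalised counts with CMA, against 3462, 2299 and 2984 without stimulation. The ratio of means was 57.25-fold and the log2 change 5.85 ± 0.28 (SE; adjusted p = 2.19e-09, limma). Its unstimulated level was also the highest of the 4 by count.

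Ifit3 and its near copy I830012O16Rik had smaller changes. Ifit3 stood at 51259, 57981 and 54217 normalised counts with CMA, against 2158, 1486 and 1636 without stimulation. Its ratio of means was 30.96-fold and its log2 change 4.97 ± 0.19 (SE; adjusted p = 3.02e-10, limma). I830012O16Rik stood at 16317, 18871 and 17779 with CMA, against 473.6, 350.5 and 436.6 without stimulation. It was the lowest member by count in all 12 libraries, yet its ratio of means was 42.01-fold and its log2 change 5.40 ± 0.17 (SE; adjusted p = 4.99e-11, limma). With the counts of the near-identical pair summed as 1 gene, a setting chosen after the data were seen, the log2 change was 5.06.

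**Figure D1:**
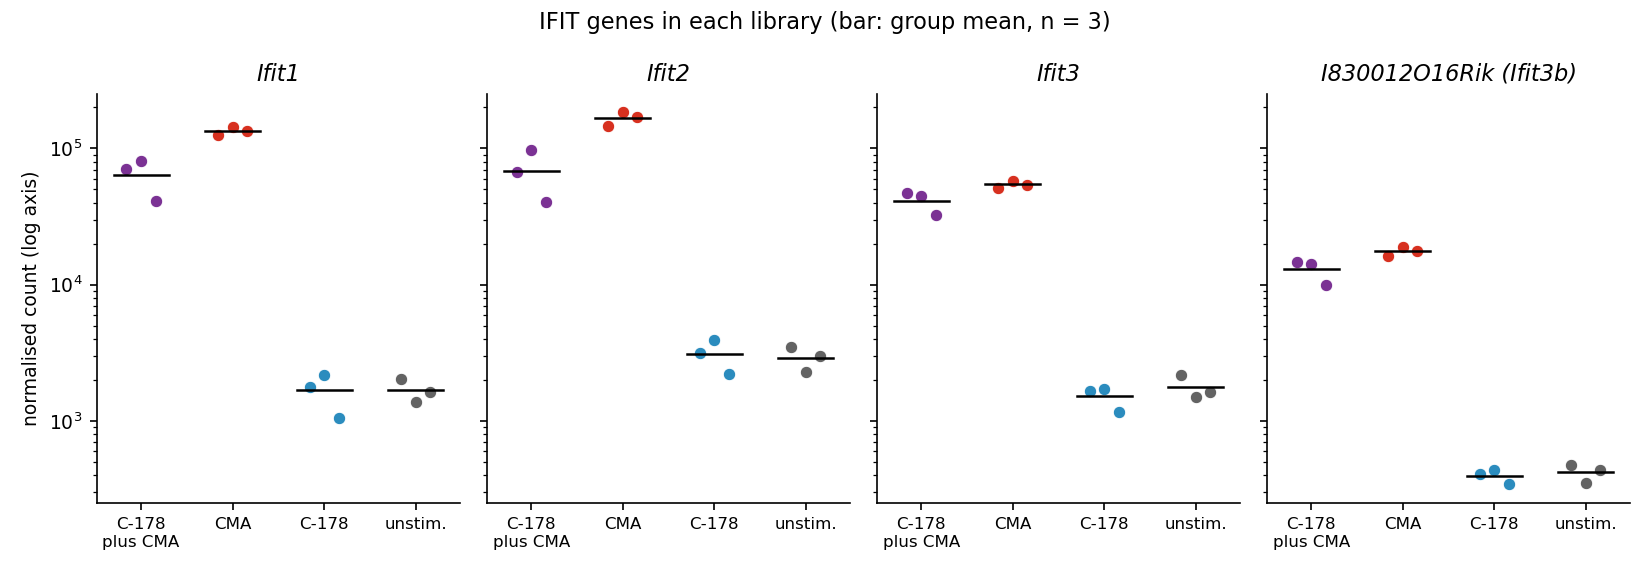
Normalised count of each IFIT gene (log axis) in the 12 libraries, by group; points are libraries and bars are means of 3. In every panel the 3 CMA libraries lie above the 3 C-178 plus CMA libraries, and both lie above the libraries without CMA; for Ifit1 the means were 64184 with C-178 plus CMA, 134499 with CMA, 1671 with C-178 and 1673 unstimulated.

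Within each group the members tended to be high or low in the same libraries. All 4 were lowest in library 1 and highest in library 2 of the CMA group. All 4 were highest in library 2 and lowest in library 3 of the C-178 group, and lowest in library 3 of the C-178 plus CMA group. The members share a library and its size factor, so this is a description of the libraries and not of a shared control.

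C-178 alone left the family near its unstimulated level. None of the 4 was called by limma, where 0.0962% of all genes were called higher and 0% lower; none had an unadjusted p under 0.05, and edgeR and DESeq2 also called none. Ifit1 stood at 1784, 2171 and 1058 normalised counts with C-178, against 2018, 1381 and 1622 without stimulation. The log2 difference was -0.05 with a 95% interval of -0.63 to 0.53. Ifit2 stood at 3157, 3936 and 2223 with C-178, against 3462, 2299 and 2984 without stimulation, a difference of 0.07 (95% interval -0.53 to 0.68). For both genes the groups overlapped, where 7.87% of all tested genes lay wholly higher and 7.68% wholly lower, and the interval leaves room for a change of either sign.

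Ifit3 stood at 1654, 1709 and 1170 normalised counts with C-178, against 2158, 1486 and 1636 without stimulation, with a log2 difference of -0.22 (95% interval -0.63 to 0.18). I830012O16Rik stood at 407, 436.6 and 342.9 with C-178, against 473.6, 350.5 and 436.6 without stimulation, with a difference of -0.08 (95% interval -0.44 to 0.27). All these intervals are narrow beside the response to CMA. The sign turned for Ifit1 (0.10) and I830012O16Rik (0.01) without unstimulated library 1, for the same genes (0.25 and 0.02) without library 3 of C-178, and for Ifit2 without unstimulated library a (-0.09) or library 2 of C-178 (-0.12).

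When C-178 was given with CMA, Ifit1 and Ifit2 were lower than with CMA alone, while the fall of Ifit3 and I830012O16Rik did not pass the test. Thus 2 of the 4 members were called lower, where 13.5% of all tested genes were called lower and 10.6% higher. The median log2 difference over the members was -0.79, with 0.00 for all tested genes. None of the 4 had overlapping groups, where 18.5% of all tested genes lay wholly lower and 17% wholly higher. The all-gene calls rested on single libraries, with 1217 genes higher and 1543 lower in all, but 2179 and 2532 without library 2 of C-178 plus CMA, 597 and 747 without library 2 of CMA, and 602 and 835 without library 3 of CMA.

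Ifit1 stood at 70595, 80749 and 41206 normalised counts with both drugs, against 125407, 143454 and 134636 with CMA alone. All 3 libraries with the inhibitor were below all 3 without it, and library 3 was well below the other two. The mean was 2.096-fold lower, with a log2 difference of -1.12 ± 0.27 (SE; adjusted p = 0.0105, limma). The difference was -0.83 (adjusted p = 0.0285) without that library. A fit on these 2 groups alone gave the same -1.12 with an adjusted p of 0.0539, above the threshold.

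Ifit2 stood at 66825, 97961 and 40772 normalised counts with both drugs, against 145640, 184983 and 170080 with CMA alone. It had the widest spread of the members with the inhibitor, 68519 ± 28632 (SD, n = 3), against 166901 ± 19863 with CMA (SD, n = 3). The mean was 2.436-fold lower, with a log2 difference of -1.37 ± 0.28 (SE; adjusted p = 0.00463, limma). Without library 3 the difference was -1.04 (adjusted p = 0.00902).

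Ifit3 stood at 47110, 44769 and 32338 normalised counts with both drugs, against 51259, 57981 and 54217 with CMA alone. Its groups did not overlap, but the gap between the nearest libraries was small, and the log2 difference of -0.41 (95% interval -0.82 to -0.01) had an adjusted p of 0.121 (limma). It was -0.24 without library 3 of C-178 plus CMA, over 1.5 times smaller. I830012O16Rik stood at 14743, 14268 and 9988 with both drugs, against 16317, 18871 and 17779 with CMA alone. Its log2 difference was -0.46 (95% interval -0.82 to -0.10; adjusted p = 0.0571, limma). For this gene DESeq2 passed the threshold (-0.44, adjusted p = 0.0453), as did the limma fits without library 1 (-0.56, adjusted p = 0.0436) or library 2 (-0.54, adjusted p = 0.0281) of C-178 plus CMA, and the value was -0.28 without library 3. With quantile normalisation it was -0.16 (adjusted p = 0.459).

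With the inhibitor present, CMA still raised every member. Against C-178 alone all 4 rose, where 13.5% of all tested genes were called higher and 12.6% lower, and no groups overlapped, where 16.8% lay wholly higher and 17.2% wholly lower. Ifit1 averaged 64184 ± 20537 normalised counts in the group given both drugs and 1671 ± 565.2 in the C-178 group (SD, n = 3 each), a log2 change of 5.27 ± 0.27 (SE; adjusted p = 9.42e-09, limma). Ifit2 had the smallest change in this comparison, 4.41 ± 0.28 (SE; adjusted p = 8.07e-08), although it had the second largest with CMA alone. Ifit3 changed by 4.78 ± 0.19 (SE; adjusted p = 1.13e-09) and I830012O16Rik by 5.02 ± 0.17 (SE; adjusted p = 2.3e-10). Against unstimulated cells all 4 rose too, by 5.22 for Ifit1, 4.48 for Ifit2, 4.55 for Ifit3 and 4.94 for I830012O16Rik with adjusted p of 7.93e-08 or less; of all tested genes, 11.1% were called higher and 10.5% lower, and 16.9% lay wholly higher and 17.6% wholly lower. The numbers of the C-178 plus CMA and C-178 libraries were taken to pair them, from their residuals and not from a label. The fit with the number as a block called the same members.

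The difference between these 2 responses to CMA, with and without C-178, was tested by an interaction term. It was called for Ifit2, at -1.44 ± 0.40 (SE; adjusted p = 0.0387, limma), where 5.99% of all tested genes were called lower and 3.95% higher. For Ifit1 it was -1.08 ± 0.38 (SE; adjusted p = 0.0813), for I830012O16Rik -0.38 ± 0.23 (SE; adjusted p = 0.278; -0.09 with quantile normalisation) and for Ifit3 -0.19 ± 0.27 (SE; adjusted p = 0.64). The Ifit2 call was close to the threshold and was lost with no filter on low values, with quantile normalisation, and without any 1 of 8 single libraries. Those were unstimulated library 1 (-1.57), a (-1.28) and b (-1.47), library 1 (-1.41) and 2 (-1.25) of C-178, library 2 (-1.36) and 3 (-1.42) of CMA and library 1 of C-178 plus CMA (-1.47). The Ifit1 term passed the threshold without library 3 of C-178 (-1.37) or library 2 of C-178 plus CMA (-1.27).

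**Figure D2:**
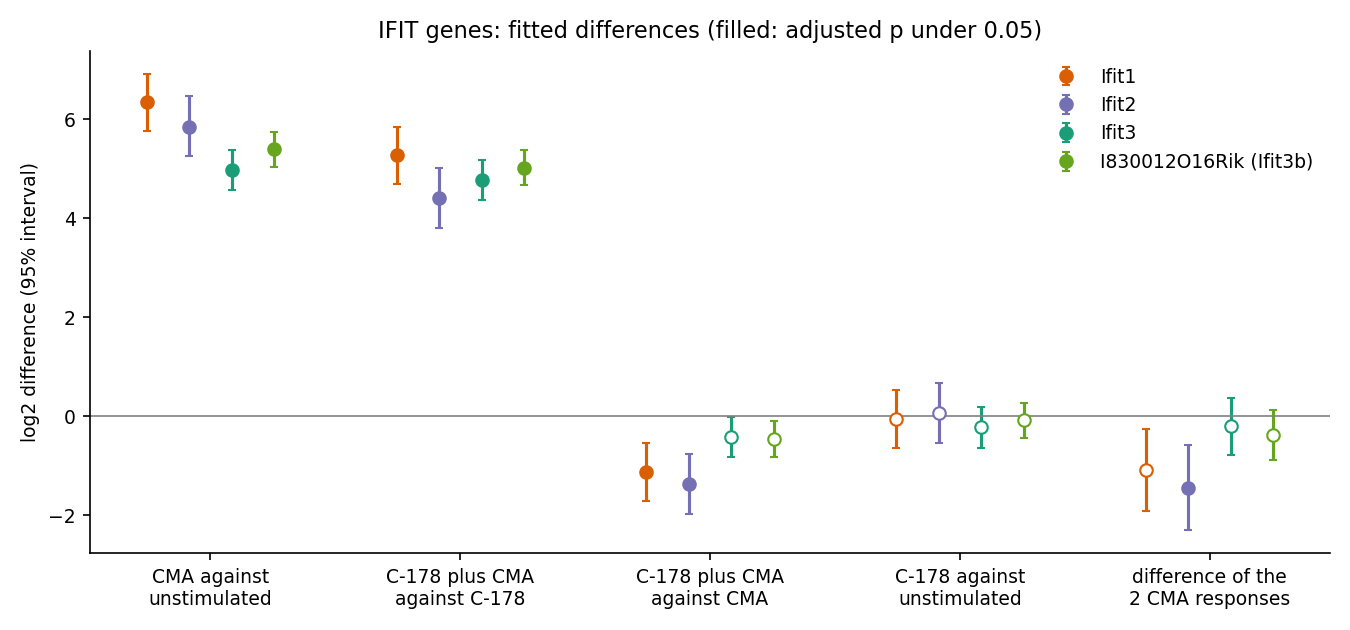
Fitted log2 differences of the 4 IFIT genes with 95% intervals in 4 comparisons and the interaction; filled points had an adjusted p under 0.05. The responses to CMA lie between 4.41 and 6.34 with or without C-178, and the effect of C-178 on top of CMA is -1.12 for Ifit1 and -1.37 for Ifit2 but -0.41 for Ifit3 and -0.46 for I830012O16Rik.

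The members kept different shares of their CMA response under C-178. The share is the height above the unstimulated mean in each C-178 plus CMA library, as a percentage of that height in the CMA mean. In normalised counts, Ifit2 kept 39%, 58% and 23.1% in the 3 libraries and Ifit1 kept 51.9%, 59.5% and 29.8%. Ifit3 kept 86%, 81.6% and 58%, and I830012O16Rik kept 83.1%, 80.3% and 55.5%. In each of the 3 libraries the order was the same at the low end, with Ifit2 below Ifit1 and both below the other members. The means were 40% ± 17.5 for Ifit2, 47.1% ± 15.5 for Ifit1, 75.2% ± 15.1 for Ifit3 and 73% ± 15.2 for I830012O16Rik (SD, n = 3, over the C-178 plus CMA libraries only). On the log2 scale all 4 kept most of the response, with means of 76.6% ± 10.8 for Ifit2, 82.3% ± 8.1 for Ifit1, 91.7% ± 5.93 for Ifit3 and 91.5% ± 5.77 for I830012O16Rik (SD, n = 3).

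**Figure D3:**
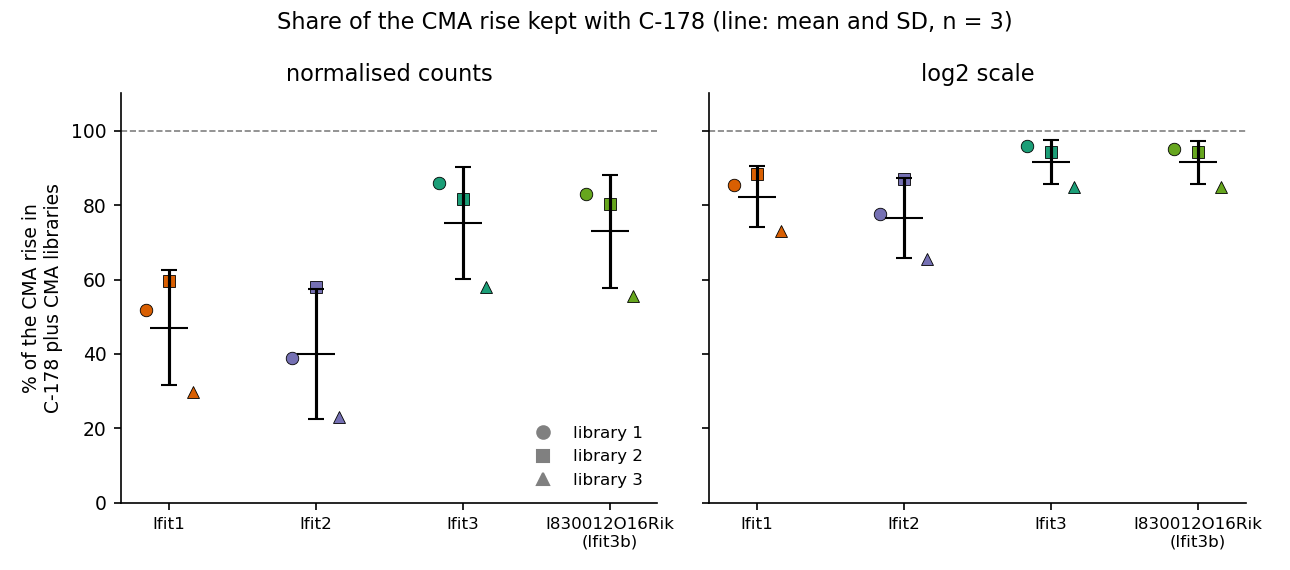
Share (%) of the CMA rise present in each C-178 plus CMA library, for normalised counts (left) and on the log2 scale (right); marker shape gives the library, the line the mean and the bar the SD over 3 libraries. Library 3 is the lowest for every gene, and Ifit2, with a mean of 40% in counts, and Ifit1, with 47.1%, sit below Ifit3 and I830012O16Rik.

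Ratios between members within a library do not depend on its depth or size factor. Those of Ifit1 and Ifit2 over Ifit3 were higher with CMA than in any other group, while the other groups partly overlapped. Over Ifit3, Ifit1 stood at 1.5, 1.8 and 1.27 with C-178 plus CMA, 2.45, 2.47 and 2.48 with CMA, 1.08, 1.27 and 0.904 with C-178, and 0.935, 0.929 and 0.991 without stimulation. The CMA values hardly varied, and all 3 C-178 plus CMA values fell between the CMA and the unstimulated ones. Over Ifit3, Ifit2 stood at 1.42, 2.19 and 1.26 with C-178 plus CMA, 2.84, 3.19 and 3.14 with CMA, 1.91, 2.3 and 1.9 with C-178, and 1.6, 1.55 and 1.82 without stimulation. In 2 of the 3 C-178 plus CMA libraries this ratio was thus below every unstimulated one, while Ifit2 itself was far above them. The near-identical pair kept its ratio under the inhibitor, with I830012O16Rik over Ifit3 at 0.313, 0.319 and 0.309 with C-178 plus CMA and 0.318, 0.325 and 0.328 with CMA, while the unstimulated values were 0.219, 0.236 and 0.267.

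All 6 pairs were tested in 2 comparisons, CMA against unstimulated and C-178 plus CMA against CMA. In 10 of the 12 tests the groups did not overlap, and each of those gave an exact two-sided permutation p of 0.1, the smallest that 3 against 3 allows, and 0.12 after Benjamini-Hochberg adjustment. No test could therefore reach 0.05. The exceptions were I830012O16Rik over Ifit3 and Ifit2 over Ifit1, both in C-178 plus CMA against CMA. All pairs are built from the same few members, so the 12 tests are not independent and their count is a description. Ratios of other genes were not tested, so no share is given to set beside it. Of all tested single genes, 31% lay wholly higher and 30.9% wholly lower in CMA against unstimulated. In C-178 plus CMA against CMA, 17% lay wholly higher and 18.5% wholly lower.

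**Figure D4:**
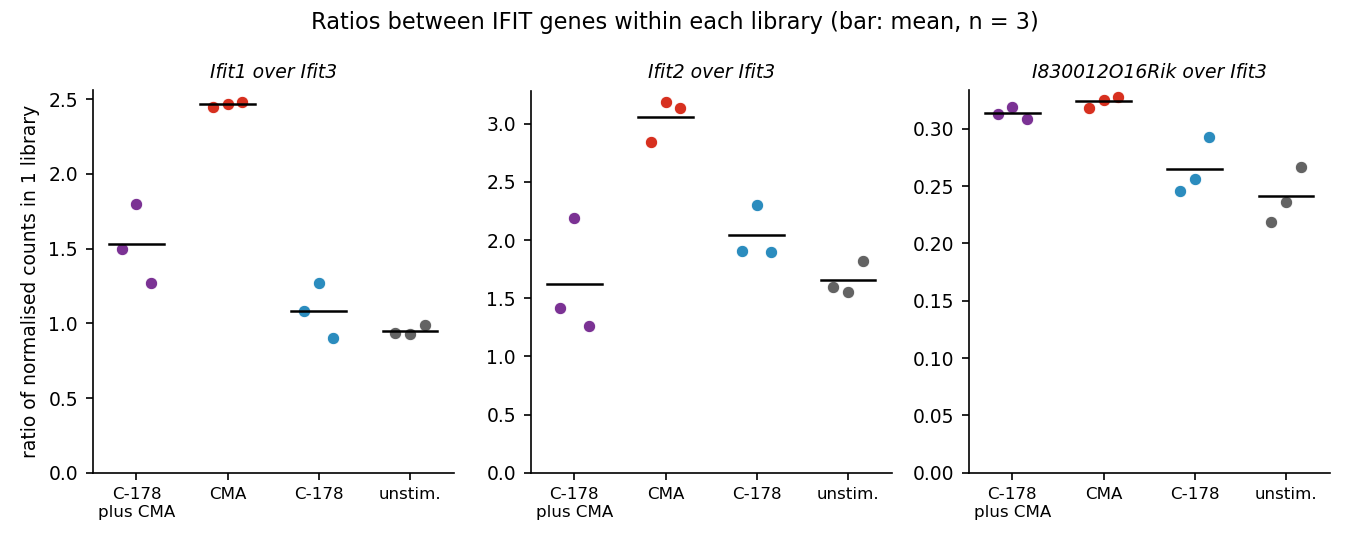
Ratio of normalised counts of Ifit1, Ifit2 and I830012O16Rik to Ifit3 within each library, by group; points are libraries and bars are means of 3. Ifit1 over Ifit3 is 2.45 to 2.48 in the CMA libraries and 1.27 to 1.8 in the C-178 plus CMA libraries, whereas I830012O16Rik over Ifit3 overlaps between them.

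Levels per kilobase of annotated exon put the members in another order than counts, and the order changed with treatment. With CMA it was Ifit1, Ifit2, Ifit3 and I830012O16Rik in all 3 libraries, with means of 50640, 42501, 31224 and 8828 normalised counts per kilobase. With C-178 plus CMA the means were 24166 for Ifit1, 17448 for Ifit2, 23728 for Ifit3 and 6500 for I830012O16Rik, and Ifit3 came first in libraries 1 and 3 while Ifit1 came first in library 2. Ifit1 and Ifit3 thus could not be ordered beyond the spread of that group. With C-178 alone Ifit3 led in libraries 1 and 3 and Ifit2 in library 2, with means of 629.2 for Ifit1, 790.7 for Ifit2, 865.8 for Ifit3 and 197.8 for I830012O16Rik. Without stimulation Ifit3 came first, then Ifit2, Ifit1 and I830012O16Rik, in all 3 libraries, with means of 1009, 742.3, 630 and 210.1 normalised counts per kilobase. Ifit1 thus stood below Ifit2 and Ifit3 per kilobase without stimulation and above both with CMA. These levels divide by the full exon length. Of the 50-base windows, 51.2% of Ifit3 and 44.5% of I830012O16Rik are shared by the pair, and such reads may have been dropped. The place of these 2 genes in each order, against Ifit1 and Ifit2, is therefore uncertain.

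The genes around the members were followed to see how far the change extended along the chromosome. Of 6 tested non-member genes, 3 were called higher with CMA and 1, Pank1, lower. The shares over all tested genes were 19.4% higher and 17.9% lower. Gm14446, now named Ifit1bl1, stood at 16485 ± 715.5 normalised counts with CMA, against 207.4 ± 12.1 without stimulation (SD, n = 3 each), a log2 change of 6.31 ± 0.32 (SE; adjusted p = 3.19e-09, limma). 2010002M12Rik averaged 289.1 with CMA and 12.42 without stimulation (log2 change 4.45, adjusted p = 2.99e-06). Part of its reads may belong to Ifit1 or Gm14446, since 7.06% of the 50-base windows of Ifit1 and 6.36% of those of Gm14446 occur in it. In Gm14446 itself, 0.614% of the windows of Ifit1 occur. Ch25h, which makes the antiviral oxysterol 25-hydroxycholesterol, changed by 5.15 (adjusted p = 4.81e-06). Lipa, the lysosomal acid lipase gene between Ch25h and Ifit2, averaged 22690 with CMA and 25478 without stimulation and was not called (-0.17, adjusted p = 0.342). Kif20b, a kinesin gene beyond Ifit1, averaged 128 with CMA and 159.6 without stimulation and was not called either (-0.32, adjusted p = 0.359), and Slc16a12 did not pass the filter on low values. When C-178 was added to CMA, only 2010002M12Rik of the 6 was called, at a log2 difference of -1.91 ± 0.45 (SE; adjusted p = 0.00948). The count was 2 without library 1 and 4 without library 2 of C-178 plus CMA. In this comparison 13.5% of all tested genes were called lower and 10.6% higher.

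**Figure D5:**
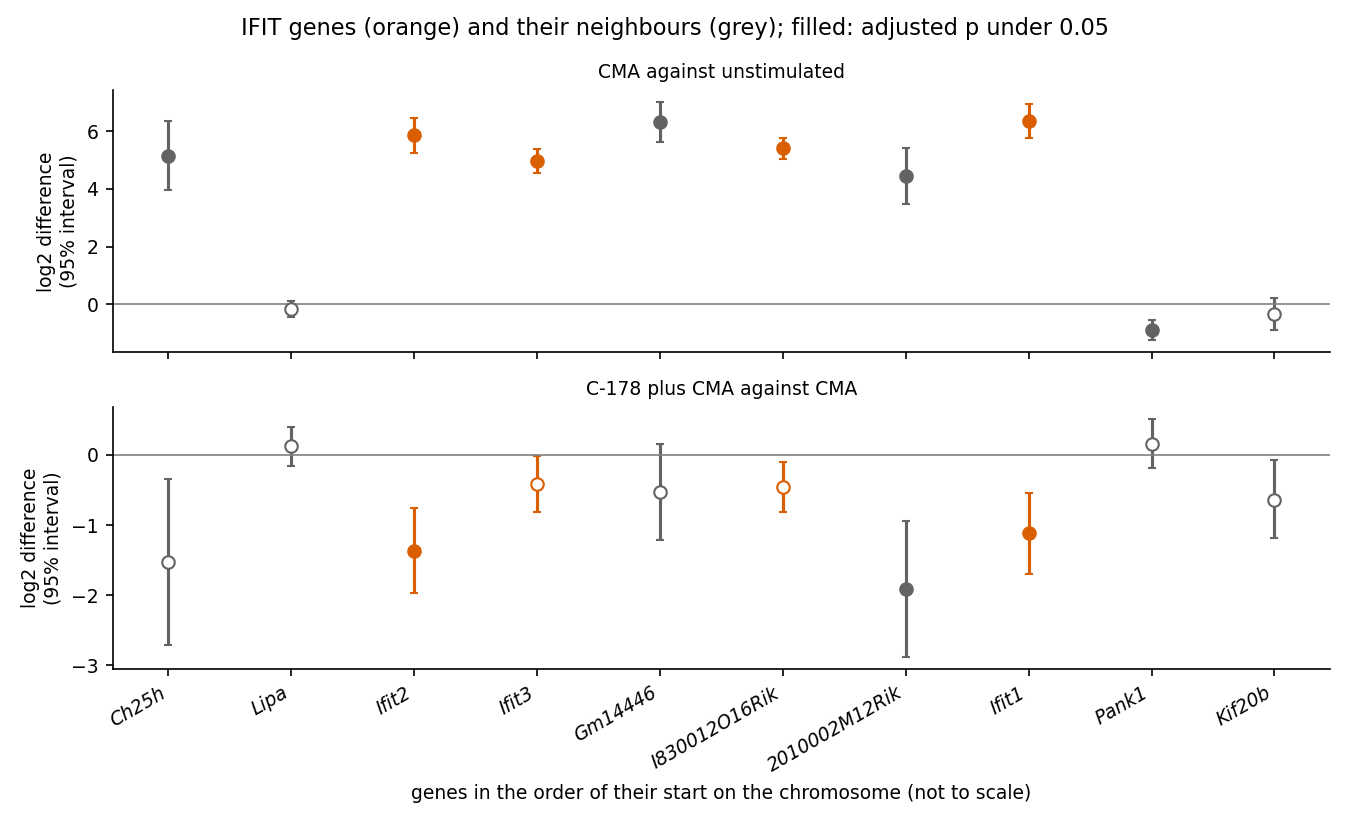
Log2 differences with 95% intervals for the IFIT genes (orange) and their tested neighbours (grey), in chromosome order and not to scale; upper panel CMA against unstimulated, lower panel C-178 plus CMA against CMA, filled where the adjusted p was under 0.05. In the upper panel the called rises run from Ch25h (5.15) to Ifit1 (6.34) with Lipa (-0.17) among them, and Pank1 (-0.89) lies below 0.

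The inducers of IFIT genes moved unevenly. Of 15 tested genes of the route through STING, IRF and interferon signalling, 10 were called higher with CMA and 1, Ifnar1, lower. Their median log2 change was 0.73. The shares over all tested genes were 19.4% higher and 17.9% lower. Ifnb1, which encodes interferon-β, averaged 1755 ± 407.9 normalised counts with CMA and was at 0 in all 3 unstimulated libraries. Irf1, an interferon-responsive activator, changed by 3.82 (adjusted p = 7.44e-10, limma), Irf7, which amplifies interferon production, by 2.65 (adjusted p = 7.23e-08) and Stat2 by 2.34 (adjusted p = 1.08e-06). Relative to CMA alone, 6 of the 15 genes in the C-178 plus CMA group were called lower and none higher, with 1 higher at an unadjusted p under 0.05 and 0 by edgeR or DESeq2. Those lower were Ifnb1, Irf1, Ikbke, Mb21d1, Tbk1 and Jak1, named for being called. The count lower was 4 without library 1 or 3 of C-178 plus CMA, or without library 2 or 3 of CMA. In this comparison 13.5% of all tested genes were called lower and 10.6% higher.

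Ifnb1 and the IFIT genes thus differed in how much of their CMA level was present with the inhibitor. Ifnb1 averaged 59.35 ± 22.5 normalised counts with both drugs and 1755 ± 407.9 with CMA alone (SD, n = 3 each), 29.57-fold lower. The fold for Ifit2, the largest among the members, was 2.436. Irf1 fell by 0.83 on the log2 scale (adjusted p = 0.00329), while Irf7 (-0.02, adjusted p = 0.934) and Stat2 (-0.38, adjusted p = 0.197) were not called.

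Among 18 tested sensors and effectors that also act on foreign RNA, 16 were called higher with CMA and 1, Mavs, lower. Their median log2 change was 2.55. The shares over all tested genes were 19.4% higher and 17.9% lower. Ifih1, the sensor MDA5, changed by 5.10 (adjusted p = 3.01e-09), Oasl1 by 6.04 (adjusted p = 2.74e-11), Oasl2 by 3.51 (adjusted p = 7.29e-08) and Ddx58, the sensor RIG-I, by 3.16 (adjusted p = 2.79e-07). Relative to CMA alone, 9 of the 18 in the C-178 plus CMA group were called lower and 1, Mavs, higher, with a median of -0.69. In this comparison 13.5% of all tested genes were called lower and 10.6% higher. Ifih1 fell by 1.87 (adjusted p = 0.000336), Oasl2 by 1.10 (adjusted p = 0.00681) and Ddx58 by 1.07 (adjusted p = 0.00913), whereas Oasl1 differed by -0.36 (adjusted p = 0.127). The count lower was 5 without library 2 and 6 without library 3 of CMA, and Mavs was not called without either of these or without library 3 of C-178 plus CMA. Ifit1 and Ifit2 lay within the range of these called genes, and Ifit3 and I830012O16Rik lay near Oasl1.

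IFIT1 tells RNA apart by the methylation of its cap and interferes with the start of translation, so genes of both steps were counted. Of 8 tested genes of capping and cap methylation, 2 were called higher with CMA, namely Cmtr1, which adds the 2′-O methyl mark that IFIT1 avoids (1.39, adjusted p = 9.08e-05), and the decapping enzyme gene Dcp2 (2.32, adjusted p = 0.000184). Cmtr2 (-0.82, adjusted p = 0.00425) and Fam103a1 (-0.64, adjusted p = 0.0442) were called lower, but the count lower was 1 without library 3 of C-178, library 2 or 3 of CMA or any 1 unstimulated library. Over all tested genes 19.4% were called higher and 17.9% lower, and 2 of 8 in each direction is near those shares. With C-178 plus CMA against CMA, limma, edgeR and DESeq2 called 0 of the 8 (unadjusted p under 0.05 for 1 higher and 1 lower), but without library 2 of C-178 plus CMA 2 were called higher and 1 lower, and without library 1, 1 lower. Of 15 tested genes of eIF3, to which IFIT proteins bind, and of the cap-binding complex, limma, edgeR and DESeq2 called 0 with CMA and none had an unadjusted p under 0.05. Their median log2 change was 0.07, where limma called 19.4% of all tested genes higher and 17.9% lower. In C-178 plus CMA against CMA, limma called 0 of these 15 genes, edgeR and DESeq2 1 higher each, and 2 had an unadjusted p under 0.05. Without library 2 of C-178 plus CMA, 4 of the 15 were called higher and 1 lower. For this comparison limma called 10.6% of all tested genes higher and 13.5% lower.

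The 4 genes Usp18, Socs1, Socs3 and Isg15, listed together for their links to interferon signalling, were all called higher with CMA. The shares over all tested genes were 19.4% higher and 17.9% lower. Isg15 changed by 4.45 (adjusted p = 1.03e-08), and Usp18, the protease that removes ISG15 and blocks the interferon receptor, by 4.24 (adjusted p = 7.31e-09). Socs1 changed by 7.18 (adjusted p = 2.28e-08) and Socs3 by 5.76 (adjusted p = 4.4e-09). In C-178 plus CMA against CMA, Socs3 fell by 4.01 (adjusted p = 3.73e-06), and Usp18 (0.05, adjusted p = 0.881), Isg15 (-0.37, adjusted p = 0.291) and Socs1 (-0.50, adjusted p = 0.412) were not called.

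The genes whose profile over the 12 libraries was closest to the mean profile of the members were sought among 8193 tested non-member genes averaging at least 100 normalised counts. Likeness was the root mean square of the log2 differences from that profile, each gene being centred on its unstimulated mean. The 6 closest were Gbp2 (0.24), Arid5a (0.31), Mx1 (0.36), Mx2 (0.40), Il15ra (0.41) and Gm12185 (0.43), with Pearson r of 0.989 to 0.999 over the 12 libraries, given as a description because the libraries share their groups. The members themselves were 0.17 for I830012O16Rik, 0.23 for Ifit2, 0.38 for Ifit3 and 0.42 for Ifit1 from their own mean. Gbp2, a guanylate-binding GTPase that attacks vacuoles of intracellular pathogens, lay 4.58 above its unstimulated level with C-178 plus CMA and 5.93 with CMA on the log2 scale, where Ifit2 lay 4.48 and 5.85 above its own. The transcript of Mx1 lay 5.23 above with C-178 plus CMA and 6.11 with CMA, where Ifit1 lay 5.22 and 6.34 above.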

How the data were processed

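The authors deposited 1 table of signal per gene and library for 12 RNA-seq libraries. Its values are gene counts divided by size factors, inferred per the file headers, which hold a mean and Cook's distances; the 12 columns of the latter were not used. Reads were aligned to mm10, with Bowtie2 2.2.1 and limma 3.18.13 named, per the submitters' processing notes. The stranded TruSeq mRNA kit was used, per the labels' protocols. Not given in the sources used here are the counter, the gene annotation and the strand option. The smallest step of a column was taken as 1 read, and 100% of values were then whole (tolerance 0.01). The 2 unstimulated columns numbered alike share a heading and are called libraries a and b.

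Log2(normalised count + 1) of 11440 genes was fitted over all 12 libraries with limma 3.58.1 under R 4.3.3 (eBayes with trend), and each comparison had its own Benjamini-Hochberg adjustment over all these genes, with a threshold of 0.05. On this scale the fold change of low genes is understated. The scripts were tested on simulated data. edgeR 4.0.16 and DESeq2 1.42.0 on the recovered reads, other scalings, filters and pseudocounts, and leaving out each library were alternatives. Same-numbered libraries of C-178 plus CMA and C-178 had correlated residuals (0.45, 0.43 and 0.26, all over 0.1), so the numbers were taken to pair these groups. No label states such a pairing. Library 1 was also the deepest of both groups, with 36.438 M reads for C-178 plus CMA and 28.476 M for C-178. Whether depth gave the correlation was not tested. With CMA the correlations were -0.14, 0.18 and -0.16 for C-178 plus CMA and -0.04, 0.06 and -0.08 for C-178.

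The members and lists were chosen with earlier results of these data known, so their counts are descriptions. Named genes are the members, up to 4 most abundant genes of each list, Ifnb1, and the 6 genes most like the members; the listed genes around the locus that are in the table are all named, and other genes are named for their calls after the values were seen. A gene that the rule names is not reported here. Exon lengths and coordinates come from GENCODE M21, promoters from RefSeq (GRCm38.p6).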

Additional observations from a re-analysis of the deposited data

Results flagged for a closer look

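The difference between the responses of Ifit2 to CMA with and without C-178, tested by an interaction term, was -1.44 ± 0.40 (SE; adjusted p = 0.0387, limma) on the log2 scale. The call was lost in 10 of 21 alternatives, with adjusted p of up to 0.111. All 3 C-178 plus CMA libraries (66825, 97961 and 40772 normalised counts) were below all 3 CMA libraries (145640, 184983 and 170080), while C-178 alone (3157, 3936 and 2223) and unstimulated cells (3462, 2299 and 2984) overlapped.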

How the results depend on the processing

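The rises of all 4 members with CMA, with or without C-178, were called under every alternative run, and so was the lower level of Ifit2 with C-178 plus CMA than with CMA (-1.67 to -1.04). For C-178 plus CMA against CMA, the Ifit1 call was lost in the fit on the compared groups alone (-1.12, adjusted p = 0.0539). I830012O16Rik was called by DESeq2 (-0.44), was -0.16 with quantile normalisation (adjusted p = 0.459), and ranged from -0.56 to -0.28 without single libraries, called without library 1 or 2 of C-178 plus CMA. The cause was not tested in any of these cases. For the interaction, DESeq2 called Ifit1 (-1.07, adjusted p = 0.0379), and so did limma without library 3 of C-178 (-1.37, adjusted p = 0.0433) or library 2 of C-178 plus CMA (-1.27, adjusted p = 0.023), within a range of -1.37 to -0.78 when single libraries were left out. The Ifit2 interaction was not called with no filter (-1.44, adjusted p = 0.072), with quantile normalisation (-1.35, adjusted p = 0.0554), or without unstimulated library 1 (-1.57), a (-1.28) or b (-1.47), library 1 (-1.41) or 2 (-1.25) of C-178, library 2 (-1.36) or 3 (-1.42) of CMA, or library 1 of C-178 plus CMA (-1.47), with adjusted p of 0.0565 to 0.111, within a range of -1.74 to -1.11 over all single libraries. With quantile normalisation the Ifit3 interaction turned to 0.02 and that of I830012O16Rik was -0.09 (adjusted p = 0.801); the median of all genes was then -0.115 for CMA against unstimulated, where it was -0.010 without it, and 0.055 for the interaction, where it was 0.007.

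For C-178 against unstimulated, never called, the sign turned for Ifit1 (0.10 without unstimulated library 1, 0.25 without library 3 of C-178; range over single libraries -0.27 to 0.25, and -0.29 with array weights), for Ifit2 (-0.03 with array weights, -0.09 without unstimulated library a, -0.12 without library 2 of C-178; range over single libraries -0.12 to 0.29) and for I830012O16Rik (0.01 without unstimulated library 1, 0.02 without library 3 of C-178; range over single libraries -0.21 to 0.02).

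The fit with the library number as a replicate block, over the 9 treated libraries, changed no call of a member. For C-178 plus CMA against CMA its adjusted p (limma) was 0.00566 for Ifit1, 0.00273 for Ifit2, 0.0932 for Ifit3 and 0.0525 for I830012O16Rik. That block also tied the CMA libraries by number, though the residuals of these 2 groups showed no such pairing (-0.14, 0.18 and -0.16). Unstimulated libraries could not be paired, because 2 share a heading. Counts over all genes moved more, with 11 genes called higher and 0 lower for C-178 against unstimulated but 823 and 1026 with array weights, and 452 higher and 685 lower for the interaction but 122 to 1681 and 209 to 2018 across alternatives. The lowest read count behind a member's value was 236.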
